A study of Homo sapiens with 9 samples.

Results

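The enzymes that carry glucose from its first phosphorylation to triose phosphate are encoded by 9 genes of this account, the hexokinases HK1 and HK2, the isomerase GPI, the phosphofructokinases PFKL, PFKM and PFKP, the aldolases ALDOA and ALDOC and the triose phosphate isomerase TPI1. They were taken by symbol from the deposited count table, which lists 60591 symbols, and all 9 were among the 15944 symbols with enough counts to be tested. The table holds mRNA sequencing of undifferentiated, proliferating Caco-2 (uCaco-2), a human colon adenocarcinoma cell line, so all values come from 1 line without tissue or other cells around it. The study asked how chemical activators of the HIF pathway change expression in these cells. Control cells had fresh medium, CoCl2 cells had medium with 300 μM cobalt (II) chloride, and OD cells had medium with 5 μM of the oxyquinoline derivative 4896-3212, a compound known here by its code. All 3 groups were lysed after 24 h and have 3 libraries each. The labels give 0.5% DMSO for the CoCl2 and control medium as well, but the stated dilution of the OD stock would bring less than that, so how closely the solvent was matched between groups is uncertain.

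Glycolysis begins with a chain of steps that spend ATP. Hexokinase traps glucose as glucose phosphate, GPI turns this into fructose phosphate, phosphofructokinase adds another phosphate in the main controlled step, aldolase splits the product into triose phosphates, and TPI1 interconverts these. Most of the steps have several isoforms that differ between tissues, such as the liver, muscle and platelet types of phosphofructokinase, and several of these genes are textbook targets of the hypoxia-inducible factors (HIF), whose degradation needs oxygen and iron.

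HIF binds DNA at a short core that holds ACGTG or GCGTG. The letters ACGTG, on either strand, were searched in the 250 bases before the transcription start, and the stretches are shown for HK2, ALDOA and ALDOC, the members called higher with both compounds, and for PFKL, the member with the largest fall. Only members whose RefSeq window (GRCh38.p14) ended at the start of the MANE Select transcript were taken, and bases that belong to an annotated exon of the same gene were left off. Capitals mark ACGTG or its reverse complement CACGT.
HK2, chr2:74833877-74834126, plus strand: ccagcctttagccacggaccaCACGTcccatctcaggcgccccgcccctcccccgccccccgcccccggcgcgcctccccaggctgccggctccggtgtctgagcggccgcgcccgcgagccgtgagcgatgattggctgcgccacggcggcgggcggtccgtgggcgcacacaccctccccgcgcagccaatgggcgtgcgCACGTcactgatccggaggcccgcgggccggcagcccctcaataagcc
ALDOA, chr16:30065510-30065759, plus strand: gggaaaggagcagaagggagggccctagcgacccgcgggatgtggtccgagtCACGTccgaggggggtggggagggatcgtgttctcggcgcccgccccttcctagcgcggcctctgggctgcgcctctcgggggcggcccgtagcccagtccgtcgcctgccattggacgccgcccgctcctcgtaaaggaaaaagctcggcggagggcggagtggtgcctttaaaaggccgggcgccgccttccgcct
ALDOC, chr17:28576949-28577145, minus strand: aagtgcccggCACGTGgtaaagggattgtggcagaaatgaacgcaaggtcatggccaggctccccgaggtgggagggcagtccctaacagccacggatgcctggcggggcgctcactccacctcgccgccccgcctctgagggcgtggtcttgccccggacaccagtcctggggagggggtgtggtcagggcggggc
PFKL, chr21:44299803-44300050, plus strand: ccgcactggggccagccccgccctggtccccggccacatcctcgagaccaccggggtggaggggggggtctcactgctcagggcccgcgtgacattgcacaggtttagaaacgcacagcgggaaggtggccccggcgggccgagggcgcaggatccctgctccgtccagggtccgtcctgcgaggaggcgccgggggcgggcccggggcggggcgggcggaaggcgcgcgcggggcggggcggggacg

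The HK2 window held 2 matches, which began 229 and 48 bases before the start, and 111 of its bases lie in an exon of the antisense lncRNA HK2-DT. ALDOA held 1 match at 198 bases. In ALDOC the palindrome CACGTG gave overlapping matches at 240 and 239 bases, and a further match at 28 bases lies in the part that other ALDOC transcripts annotate as exon and that is not printed. PFKL held no match for ACGTG. On either strand of the whole window the other core, GCGTG, had 1 match in HK2, 0 in ALDOA, 2 in ALDOC and 1 in PFKL. The genes shown were picked by their expression, so the display cannot tie the motif to the direction of change. Among members not shown, ACGTG was in 0 of 7 listed windows of HK1 and in 1 of 1 of GPI. It was in 1 of 7 of PFKM, 1 of 4 of PFKP and 1 of 2 of TPI1, whose window at the MANE Select start held 0 matches. Of 35116 promoter windows of this length in the RefSeq table, 18.5% held ACGTG and 32.2% held GCGTG on either strand, so a match is common, and no binding was measured here.

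Total counts per library were 15998136 to 18298190 in control cells, 16286502 to 24209427 under CoCl2 and 16387054 to 19623776 under OD. The scaling factors of edgeR's TMM method, which allow for shifts in composition, were 1.11 to 1.12, 0.770 to 0.795 and 1.14 to 1.15 in the same order. Levels below are CPM, the counts of a library set on one common total with these factors. Of 14 markers of intestinal epithelium, 12 reached 1 CPM in control cells, and CDX1 had no count in any library. The summed level of these markers was 12451 to 12979 CPM in control cells, 14936 to 15965 CPM under CoCl2 and 12127 to 12711 CPM under OD. The largest parts of the sum were KRT8 (4983, 6339 and 4249 CPM on average) and KRT18 (2867, 3442 and 2728 CPM). Within that sum VIL1, which encodes the brush border protein villin, averaged 613 CPM in control cells, 112 CPM under CoCl2 and 454 CPM under OD. APOB (417, 97.7 and 300.5 CPM) and KRT20 (4.49, 1.74 and 5.77 CPM) were also lower under CoCl2 than in control cells. The other markers with counts averaged higher under CoCl2 than in control cells. The part of these markers in the results was not tested. Of 8 fibroblast markers, 4 reached 1 CPM in control cells, 3 under CoCl2 and 5 under OD, and their summed level was 109 to 118 CPM, 101 to 103 CPM and 87.4 to 92.7 CPM. Most of it was PDGFRA (90.3, 82.0 and 56.7 CPM on average), while COL1A2, DCN and THY1 had at most 2 counts in any library. Of 8 blood and immune cell markers only LYZ and CD14 reached 1 CPM, and the sum was 37.7 to 43.5 CPM, 55.3 to 59.8 CPM and 36.4 to 39.7 CPM, while PTPRC and CD68 had at most 3 counts. The part of these genes in the results was not tested.

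With CoCl2, HK2, ALDOA and ALDOC were called higher than in control cells and PFKL and PFKM lower, by the rule that the edgeR quasi-likelihood p after Benjamini-Hochberg adjustment is under 0.05 and the log2 fold change exceeds 1 in either direction. That is 3 of 9 members higher, where 19.9% of all tested genes were called higher, and 2 of 9 lower, where 23.4% were. With OD, 4 members were called higher (HK1, HK2, ALDOA and ALDOC) against a background of 9.09%, and 0 were called lower against 4.16%. In the direct comparison of CoCl2 with OD, ALDOA was called higher with CoCl2 than with OD (1 of 9, background 17.5%) and HK1 and PFKL lower (2 of 9, background 23.8%). Scaling by library size alone called 2 members higher and 2 lower with CoCl2 than in control cells, where it called 1833 genes higher and 5839 lower of 15944. Between the compounds it called 1 member higher under CoCl2 and 5 members lower (HK1, PFKL, PFKM, PFKP and ALDOC), where 1351 and 6026 genes were called.

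The adjusted p alone, with no limit on size, gave 6 members higher and 3 lower with CoCl2, where 40.4% and 42.8% of all genes passed. It gave 8 members higher and PFKM lower with OD, where 32.3% and 33.3% passed. Between the compounds, 2 members were higher with CoCl2 and 6 lower, where 40.2% and 43.2% passed, and GPI did not pass. The libraries of the groups did not overlap for 9 of 9 members with CoCl2 (83.4% of all genes), for 9 of 9 with OD (68.0%) and for 8 of 9 between the compounds (83.8%). The median log2 fold change of the members was 0.68 with CoCl2 and 0.65 with OD, beside -0.05 and -0.01 over all tested genes, and -0.76 for CoCl2 against OD, beside -0.05. Both comparisons with control use the same 3 control libraries.

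**Figure D1:**
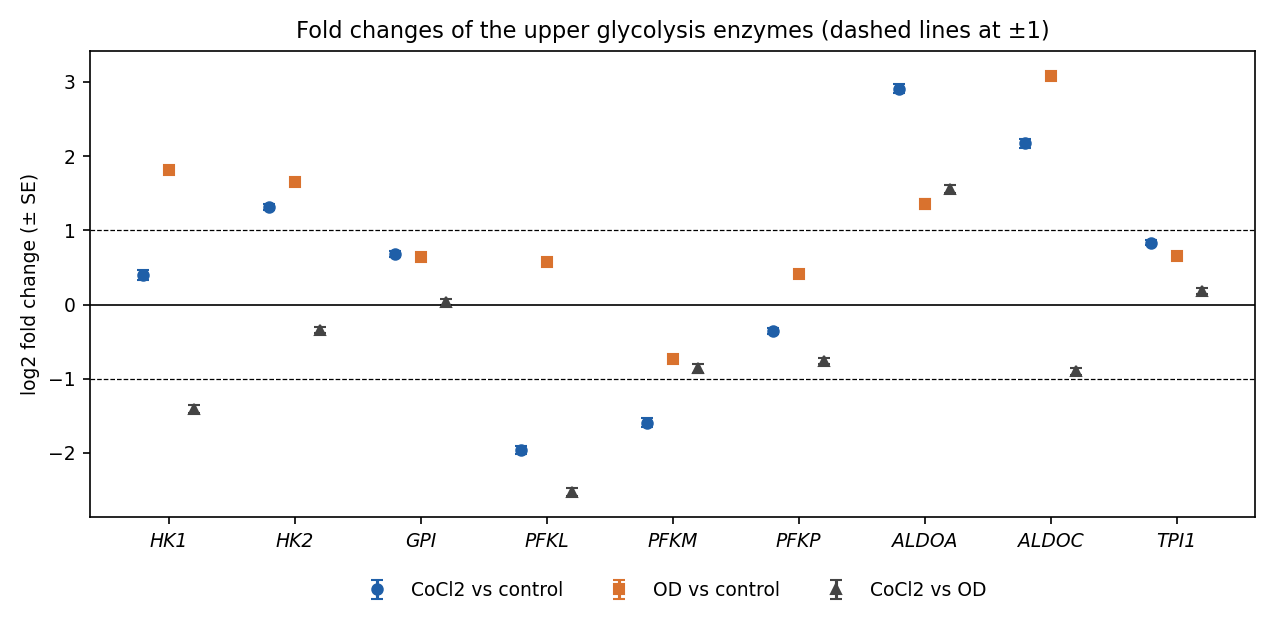
Log2 fold change with its standard error (vertical axis) of the 9 enzymes (horizontal axis) in the 3 comparisons, from the edgeR fit over 9 libraries, with dashed lines at 1 in size. ALDOA (2.91) and ALDOC (2.17) stand highest with CoCl2. ALDOC (3.08), HK1 (1.81) and HK2 (1.66) stand highest with OD, above ALDOA (1.35). PFKL lies at -1.96 with CoCl2 and 0.57 with OD, and GPI and TPI1 have like values with both compounds. The ALDOA row may hold only part of the reads of that gene.

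HK1 and HK2 catalyse the first step. HK1 (chr10:69269984-69401884, plus strand, GRCh38) is the hexokinase of most tissues, and HK2 (chr2:74834127-74893359, plus strand) is the inducible form of muscle, fat and many tumours. HK2 stood at 75.4, 81.7 and 76.2 CPM in the control libraries, at 194, 187 and 199 CPM with CoCl2 and at 247, 245.5 and 243 CPM with OD. The 3 groups were fully separated and OD was highest. HK2 rose 2.49-fold with CoCl2 (log2 fold change 1.31, SE 0.0451, edgeR adjusted p = 2.74e-36) and 3.15-fold with OD (1.66, SE 0.0444, adjusted p = 4.39e-41). Scaling by library size alone moved the median of all genes to -0.55 for CoCl2 against control. It gave HK2 a value of 0.81 with CoCl2 and ended the call. Relative to the median of all genes HK2 stood at 1.36 under either scaling. A change of scaling moves a gene and that median almost alike, so such a value, for HK2 and the members below, cannot show which scaling is right. The direct difference between the compounds was -0.34 on the log2 scale (SE 0.0417, adjusted p = 4.61e-11), below the limit on size.

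HK1 showed its larger change with OD. It was at 27.98, 25.0 and 27.5 CPM in control libraries, 34.5, 34.8 and 36.4 CPM with CoCl2 and 96.0, 90.5 and 95.1 CPM with OD. The CoCl2 libraries lay just above the controls, and the OD libraries far above both. HK1 rose 3.50-fold with OD (log2 fold change 1.81, SE 0.0565, edgeR adjusted p = 1.76e-37). With CoCl2 the log2 fold change was 0.40 (SE 0.0641, adjusted p = 8.95e-08), and scaling by library size alone gave -0.11 with an adjusted p of 0.116. Relative to the median of all genes HK1 stood at 0.45 under either scaling. Between the compounds HK1 was 2.66-fold lower with CoCl2 (log2 fold change -1.41, SE 0.0558, adjusted p = 6.21e-33).

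The balance of the pair was measured as the log2 ratio of HK2 to HK1 counts within each library, which no scaling between libraries can move. In control cells there were 2.69, 3.27 and 2.77 HK2 counts for each HK1 count, with CoCl2 5.63, 5.36 and 5.46, and with OD 2.58, 2.71 and 2.55. CoCl2 libraries lay above all others, while OD and control libraries overlapped. The log2 ratio was 0.92 higher with CoCl2 than in control cells (SE 0.0890) and 1.07 higher than with OD (SE 0.0338), each with an exact two-sided permutation p of 0.1, the smallest that 3 libraries against 3 can give, and an adjusted p of 0.107 over the 15 ratio comparisons. With OD, where both genes rose, it differed from control by -0.15 (SE 0.0907, exact permutation p = 0.2, adjusted p = 0.2).

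To set the levels of different genes side by side, CPM were divided by the length of all annotated exons. On this scale HK2 made up 77.1% ± 1.81 of HK1 plus HK2 in control cells, 86.4% ± 0.285 under CoCl2 and 75.2% ± 0.600 under OD (SD, n = 3). The size of this share depends on the length used, since by the MANE Select transcript it was 65.0%, 77.8% and 62.6%. By all annotated exons the summed level of the pair was 17.0 ± 0.348 CPM per kb in control cells, 37.8 ± 1.14 under CoCl2 and 55.1 ± 0.595 under OD. That is 2.22 and 3.23 times the control level. HKDC1, a further hexokinase-like gene of intestine and other epithelia, rose 2.51-fold with CoCl2 (edgeR adjusted p = 1.42e-29) and 2.33-fold with OD (adjusted p = 3.13e-27). When HKDC1 was counted in, it held 24.2% of the hexokinase level in control cells, 26.5% under CoCl2 and 18.7% under OD. The share of HK1 among the 3 depends on the length used, since it was 17.4%, 9.97% and 20.1% by all annotated exons and 27.0%, 16.3% and 30.9% by the MANE Select transcript, with CoCl2 lowest and OD highest by both.

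**Figure D2:**
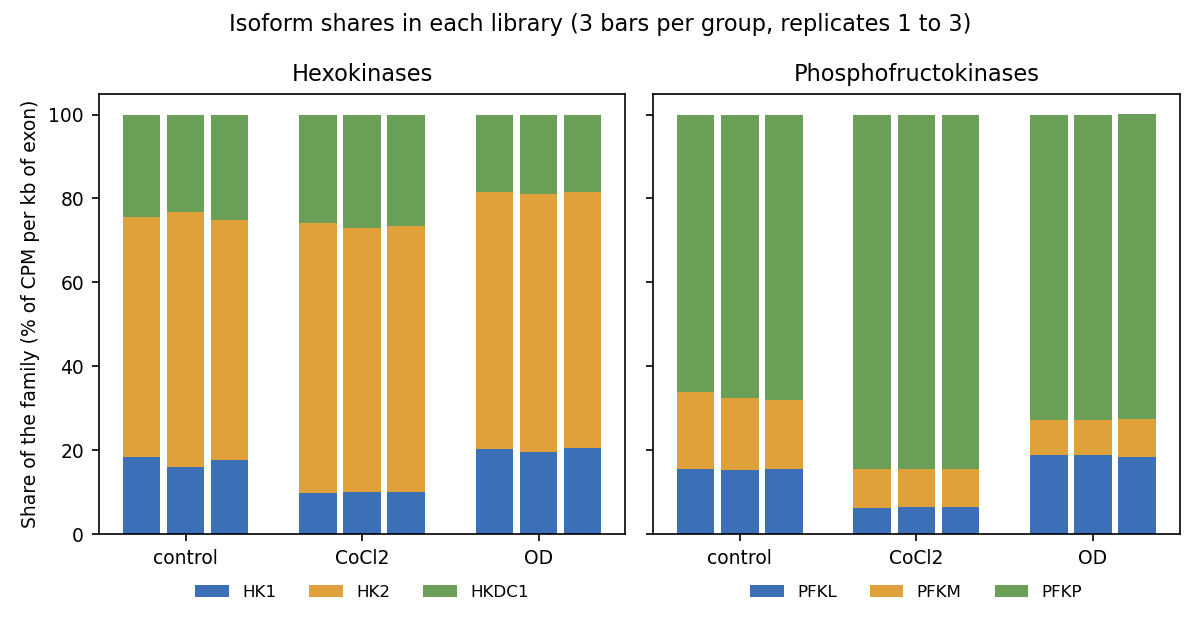
Share of each isoform in the hexokinases (left) and the phosphofructokinases (right), in % of the CPM per kb of exon of the family (vertical axis), for each of the 9 libraries (bars, 3 per group). The HK1 share is 17.4% in control cells, 9.97% under CoCl2 and 20.1% under OD, and PFKP takes 67.2% in control cells, 84.4% under CoCl2 and 72.7% under OD.

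GPI (chr19:34359480-34402413, plus strand) is the single isomerase of the next step and outside the cell is also known as a cytokine. It measured 334, 319 and 339 CPM in the control libraries, 534, 506 and 544.5 CPM with CoCl2 and 528.5, 509.9 and 507 CPM with OD. Both treated groups lay above the controls and overlapped each other. The log2 fold change was 0.68 with CoCl2 (SE 0.0401, edgeR adjusted p = 5.64e-24) and 0.64 with OD (SE 0.0399, adjusted p = 3.17e-22), so GPI rose with each compound at the adjusted p alone and was not called. Scaling by library size alone lowered the value with CoCl2 to 0.17. The difference between the compounds was 0.04 (SE 0.0394, adjusted p = 0.373), and its sign turned with the scaling and the count filter, while relative to the median of all genes it was 0.09 under either scaling. Of the 75-base stretches of its MANE Select transcript, 11.2% also occur in transcripts of other genes.

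With CoCl2 all 3 phosphofructokinases were lower than in control cells, under library size alone as under TMM. PFKL (chr21:44300051-44327376, plus strand) encodes the liver type, PFKM (chr12:48105139-48146404, plus strand) the muscle type and PFKP (chr10:3066333-3137718, plus strand) the platelet type. In these bulk libraries fewer cells that express a gene and less RNA per cell cannot be told apart. PFKL had 115, 112.5 and 114 CPM in control libraries, 28.4, 27.8 and 31.3 CPM with CoCl2 and 176, 169 and 162 CPM with OD. The groups lay on opposite sides of the control libraries without overlap. PFKL fell 3.88-fold with CoCl2 (log2 fold change -1.96, SE 0.0552, edgeR adjusted p = 6.46e-41) and rose at the adjusted p alone with OD (0.57, SE 0.0453, adjusted p = 1.48e-17). The compounds differed by -2.53 on the log2 scale (SE 0.0539, adjusted p = 2.18e-47), a 5.77-fold lower level with CoCl2.

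PFKM was the member that was lower with both compounds. It had 109.9, 101 and 97.5 CPM in control libraries, 33.6, 31.9 and 36.4 CPM with CoCl2 and 62.0, 59.9 and 64.4 CPM with OD. No groups overlapped and OD lay between the other 2. PFKM fell 3.02-fold with CoCl2 (log2 fold change -1.59, SE 0.0575, edgeR adjusted p = 4.12e-35). With OD it fell at the adjusted p alone (-0.73, SE 0.0518, adjusted p = 1.04e-19), and the compounds differed by -0.86 (SE 0.0593, adjusted p = 7.15e-21). Scaling by library size alone gave -1.41 between the compounds, which was called, and relative to the median of all genes it was -0.81 under either scaling. Exons of SENP1 on the opposite strand cover 7.12% of the PFKM exon bases, and whether the counting used strand is not given in the sources used here.

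PFKP had the smallest fold changes of the 3. Its control libraries held 424, 429.7 and 434 CPM, the CoCl2 libraries 330.2, 318 and 358 CPM and the OD libraries 590.2, 564 and 553 CPM. All CoCl2 libraries lay below and all OD libraries above the controls. The log2 fold change was -0.35 with CoCl2 (SE 0.0413, edgeR adjusted p = 9.85e-12) and 0.41 with OD (SE 0.0405, adjusted p = 1.05e-13), neither called. CoCl2 differed from OD by -0.76 (SE 0.0411, adjusted p = 5.86e-26). Scaling by library size alone gave -1.31 for this difference, which was called, and relative to the median of all genes it was -0.71 under either scaling.

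The ratios of the 3 genes within a library show the balance of the family. PFKP counts per PFKL count were 3.68, 3.82 and 3.82 in control libraries, 11.6, 11.5 and 11.4 with CoCl2 and 3.35, 3.33 and 3.42 with OD. The log2 ratio was 1.61 higher with CoCl2 than in control cells (SE 0.0188) and differed from control by -0.16 with OD (SE 0.0206), each with an exact two-sided permutation p of 0.1 (adjusted p = 0.107). For PFKM to PFKL the ratio was 0.954, 0.901 and 0.857 in control libraries, 1.18, 1.15 and 1.16 with CoCl2 and 0.353, 0.354 and 0.398 with OD. That is a log2 difference from control of 0.37 with CoCl2 (SE 0.0464) and of -1.30 with OD (SE 0.0724), again without overlap and with an exact permutation p of 0.1. The log2 ratio of PFKP to PFKM differed from control by 1.24 with CoCl2 (SE 0.0610) and by 1.13 with OD (SE 0.0763), and the compounds differed by 0.11 (SE 0.0471, exact permutation p = 0.1).

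Per kb of exon, PFKP made up 67.2% ± 1.05 of the phosphofructokinase level in control cells, 84.4% ± 0.0756 under CoCl2 and 72.7% ± 0.190 under OD (SD, n = 3). PFKL held 15.5% in control cells, 6.39% under CoCl2 and 18.8% under OD, and PFKM held 17.3%, 9.17% and 8.52%. PFKL and PFKM were close in control cells, and their order depends on the length used, since by coding length PFKL held 19.0% and PFKM 13.9%. The summed level was 82.2 ± 0.386 CPM per kb in control cells, 51.1 ± 3.12 under CoCl2 and 100.7 ± 3.12 under OD, or 0.622 and 1.23 times the control level. The sum was thus lower than in every control library with CoCl2 and higher with OD, although no test was made of it.

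**Figure D3:**
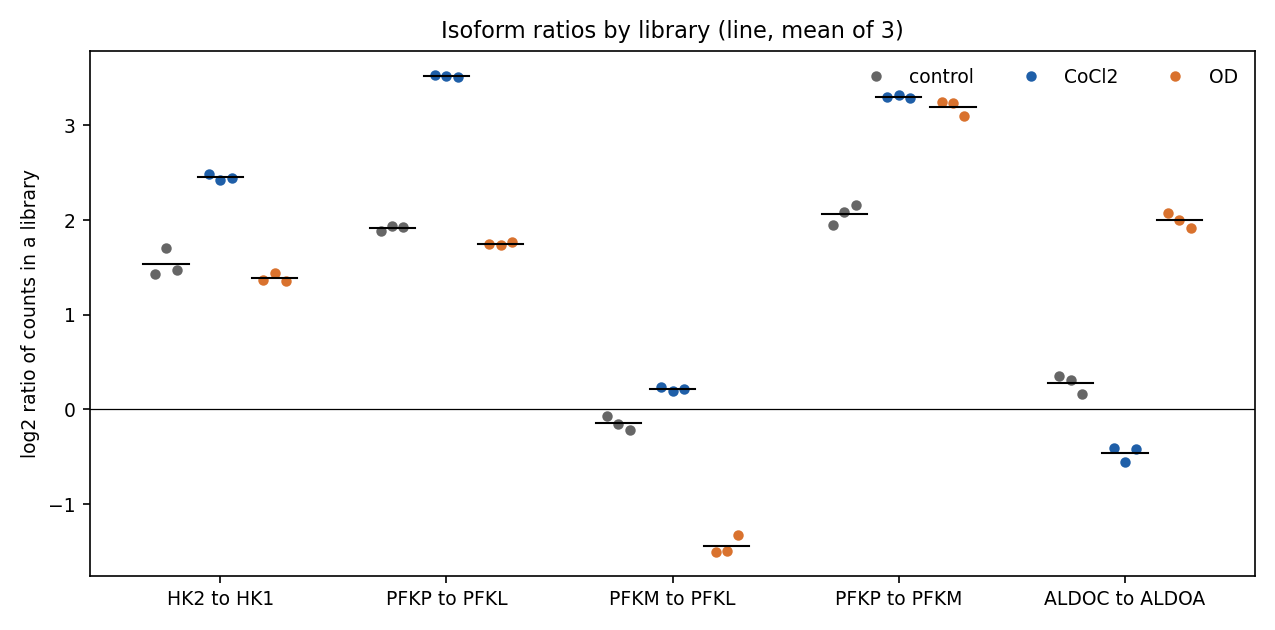
Log2 ratio of the counts of paired isoforms within each library (vertical axis) for 5 pairs (horizontal axis), with points for libraries, lines for the mean of 3 and colours for the group. CoCl2 libraries stand apart in PFKP to PFKL (mean 3.52 against 1.91 in control cells), and OD libraries in PFKM to PFKL (-1.44 against -0.15). ALDOC to ALDOA lies on opposite sides of control (-0.46 with CoCl2, 2.00 with OD, 0.28 in control cells). The ALDOA row may hold only part of the reads of that gene.

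The aldolases measured here were ALDOA (chr16:30064164-30070457, plus strand), the form of muscle and of most proliferating cells, and ALDOC (chr17:28573115-28576948, minus strand), the form of brain. ALDOC had 21.1, 18.4 and 19.4 CPM in control libraries, 89.8, 86.8 and 88.9 CPM with CoCl2 and 172, 169 and 155 CPM with OD. The groups were separated in this order. ALDOC rose 4.51-fold with CoCl2 (log2 fold change 2.17, SE 0.0605, edgeR adjusted p = 3.19e-41) and 8.43-fold with OD (3.08, SE 0.0575, adjusted p = 1e-49). The difference between the compounds was -0.90 (SE 0.0485, adjusted p = 4.92e-26), just inside the limit on size. Scaling by library size alone gave -1.45, which was called, and relative to the median of all genes the difference was -0.85 under either scaling.

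The ALDOA row showed the reverse order. It may hold only part of the reads of that gene, as set out below, and the ratios with ALDOC carry the same limit. The row held 16.5, 14.9 and 17.3 CPM in control libraries, 119, 127 and 119 CPM with CoCl2 and 40.8, 42.2 and 41.1 CPM with OD. CoCl2 was highest and no groups overlapped. The row rose 7.51-fold with CoCl2 (log2 fold change 2.91, SE 0.0611, edgeR adjusted p = 6.58e-48) and 2.55-fold with OD (1.35, SE 0.0659, adjusted p = 2.11e-27), and it was 2.94-fold higher with CoCl2 than with OD (1.56, SE 0.0529, adjusted p = 1.81e-36). The ALDOC to ALDOA count ratio was 1.28, 1.24 and 1.12 in control libraries, 0.753, 0.681 and 0.748 with CoCl2 and 4.23, 4.0 and 3.77 with OD. The log2 ratio differed from control by -0.74 with CoCl2 (SE 0.0743) and by 1.72 with OD (SE 0.0754), each with an exact two-sided permutation p of 0.1 (adjusted p = 0.107), and CoCl2 differed from OD by -2.46 (SE 0.0671).

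Most of the ALDOA transcript is shared with another annotated gene. In GENCODE release 44 the locus ENSG00000285043 shares 89.8% of the bases of the ALDOA MANE Select transcript on the same strand, and 89.3% of the 75-base stretches of that transcript also occur in transcripts of that locus. The row held 303 to 309 counts in the control libraries, at most 2267 with CoCl2 and at most 950 with OD. How reads on shared bases were counted is not given in the sources used here. If they were left out, the row rests on the unshared bases, which are 168 of 1640 in the MANE Select transcript. A change of the whole mRNA and a change in the use of those bases could then not be told apart. The level of the row could also not be set against that of ALDOC. The row of AC093512.2, an identifier that could not be matched in release 44, held 5 to 52 counts, and adding it to ALDOA changed no call. Reads left out of both rows would not come back with this sum, so it cannot show what the shared bases do to the call.

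TPI1 (chr12:6867119-6870948, plus strand), the last of these enzymes, had the highest level of the 9. Its control libraries held 961, 901 and 902 CPM, the CoCl2 libraries 1666, 1599 and 1663 CPM and the OD libraries 1468, 1443 and 1430 CPM. Both treated groups lay above control without overlap. The log2 fold change was 0.83 with CoCl2 (SE 0.0391, edgeR adjusted p = 3.92e-29) and 0.65 with OD (SE 0.0389, adjusted p = 4.27e-23), so TPI1 rose with each compound at the adjusted p alone. Scaling by library size alone lowered the value with CoCl2 to 0.33. CoCl2 was 0.18 higher than OD (SE 0.0386, adjusted p = 2.12e-05), a difference that turned to -0.36 with scaling by library size alone and was 0.24 relative to the median of all genes under either scaling. The pseudogene TPI1P1, which shares 16.5% of the 75-base stretches, had 122 to 281 counts.

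**Figure D4:**
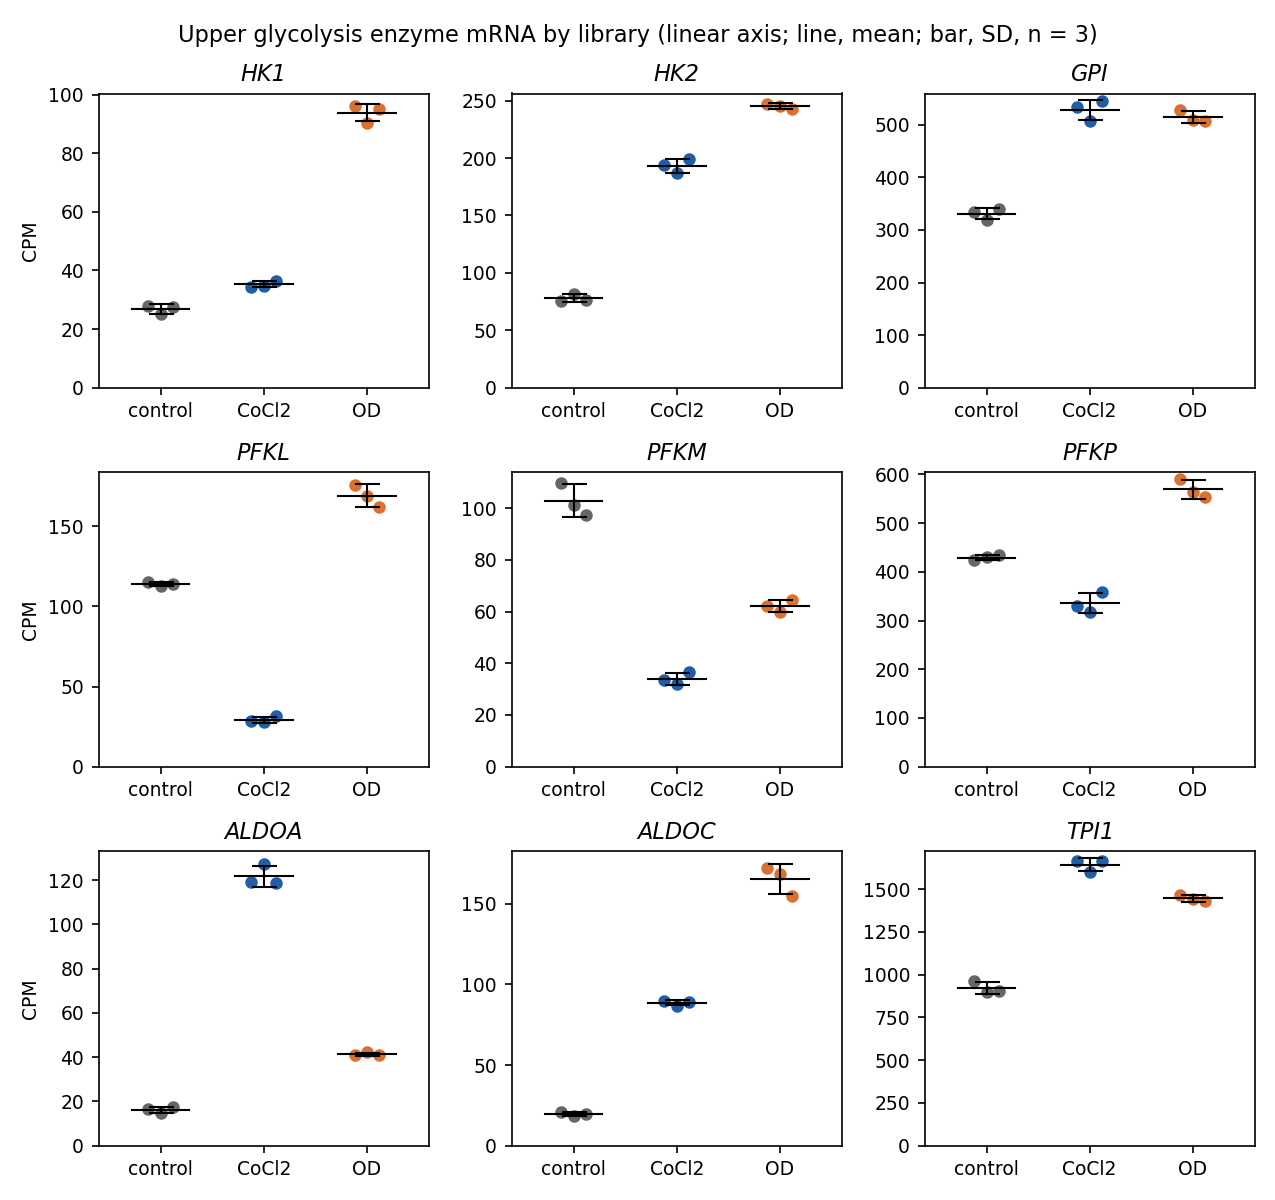
CPM (vertical axis, linear from 0) of each of the 9 enzymes in the 9 libraries, with points for libraries, a line for the mean and bars for the SD (n = 3). PFKL and PFKP lie below control with CoCl2 and above it with OD, PFKM lies below control with both, and HK1 is far above control with OD (90.5 to 96.0 CPM against 25.0 to 27.98).

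Per kb of exon the order of the levels in control cells was TPI1 (341 CPM per kb), PFKP (55.2) and GPI (31.0), then PFKM (14.2), HK2 (13.1) and PFKL (12.7), whose neighbours in the order overlapped, then ALDOC (7.52) and HK1 (3.90). With CoCl2, TPI1 stood at 608 CPM per kb and GPI at 49.5, above PFKP at 43.1, then ALDOC (33.9) and HK2 (32.7) with overlapping libraries, and HK1 (5.13), PFKM (4.69) and PFKL (3.27) came last, the first pair of these with overlap. With OD the order was TPI1 (536), PFKP (73.2), ALDOC (63.3), GPI (48.2), HK2 (41.4), PFKL (18.9), HK1 (13.7) and PFKM (8.57), and no neighbours overlapped. ALDOA was left out of this order because of its shared exons. The order depends on the length used. By the MANE Select transcript PFKL (39.2 CPM per kb) and PFKM (33.3) stood above HK2 (13.8) in control cells, and GPI (125) above ALDOC (103) and PFKL (58.1) above HK2 (43.6) with OD. By that length GPI (128.1) and PFKP (127.8) overlapped with CoCl2, as did PFKM (11.0), PFKL (10.0) and HK1 (9.79), which came last.

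The genes most like each member over the 9 libraries were found by the root mean square difference of log2 CPM from the control mean, among 9021 other genes with at least 10 CPM on average. For HK2 these were RETREG1 (difference 0.06) and the integrin gene ITGA5 (0.10), and for HK1 they were CAPN8 (0.07) and the pyruvate dehydrogenase kinase gene PDK3 (0.14). ALDOC was nearest to BHLHE40, a transcriptional repressor (0.10), and to P4HA1, a collagen prolyl hydroxylase subunit (0.19). ALDOA was nearest to OVOL1 (0.11). PFKL was nearest to PCSK6 (0.06) and CTDSPL (0.08), PFKM to XPO5 and SEMA3A (both 0.06) and PFKP to TMEM43 (0.03) and PVR (0.04). GPI had UAP1L1 and MACF1 (both 0.04), and TPI1 had CALCOCO2 (0.02) and SDC4 (0.03).

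Of the other isozymes around these steps, HK3 had at most 4 counts in any library and was not tested. HKDC1 and ADPGK, an ADP-dependent sugar kinase, could be tested, and ADPGK rose 2.63-fold with CoCl2 (log2 fold change 1.40, edgeR adjusted p = 9.8e-37) and was 1.23-fold higher with OD (0.30, adjusted p = 2.14e-07), which was not called. The median of the pair was 1.36 with CoCl2 and 0.76 with OD, on the log2 scale and beside the medians of all genes given above.

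Among 6 tested regulators of phosphofructokinase and enzymes of the reverse path, 3 were called higher and 0 lower with CoCl2 (19.9% and 23.4% of all tested genes), and 3 higher and 0 lower with OD (9.09% and 4.16%). PFKFB3 and PFKFB4 make and break the sugar bisphosphate that activates phosphofructokinase. PFKFB3 stood at 46.6 to 51.3 CPM in control libraries and rose 5.12-fold with CoCl2 and 3.68-fold with OD (log2 fold changes 2.36 and 1.88, edgeR adjusted p = 7.06e-49 and 2.12e-42). PFKFB4 stood at 9.37 to 11.5 CPM and rose 4.42-fold with CoCl2 and 13.8-fold with OD (2.14 and 3.79, adjusted p = 1.04e-36 and 4.62e-52). TIGAR, which breaks the same activator down, had log2 fold changes of 0.51 and -0.87, and was 2.61-fold higher with CoCl2 than with OD (adjusted p = 2.01e-17). The third call was GCKR, with 1 to 3 counts in control libraries, 76 to 112 with CoCl2 and 4 to 8 with OD, for which no fold is given. With GCKR set at 3 counts in each control library, its log2 value with OD was 0.97, under the limit on size, and 2 calls are left with OD. The list median was 1.33 with CoCl2 and, with GCKR set at 3 counts in control libraries, 0.55 with OD.

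Of 10 tested genes of lower glycolysis and lactate formation, 7 were called higher and 1 lower with CoCl2 (19.9% and 23.4% of all tested genes), and 3 higher and 1 lower with OD (9.09% and 4.16%). The list median was 1.14 with CoCl2 and 0.70 with OD. ENO2, the neuronal enolase, rose 2.82-fold with CoCl2 and 7.59-fold with OD (edgeR adjusted p = 7.41e-31 and 4.75e-48). BPGM, which makes bisphosphoglycerate, rose 4.34-fold with CoCl2 (adjusted p = 4.62e-30), while its value with OD was -0.30 on the log2 scale and not called. GAPDH rose 3.33-fold with CoCl2 (adjusted p = 4.42e-45) and its log2 fold change of 0.84 with OD was not called either. PGK1 rose 2.14-fold with CoCl2 and 3.12-fold with OD, and LDHA 2.50-fold and 2.72-fold. The gene called lower with both was LDHB, the heart-type lactate dehydrogenase subunit (log2 fold changes -1.02 and -1.15), which is named after its values were seen and whose MANE Select transcript shares 76.5% of its bases with another gene on the same strand.

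**Figure D5:**
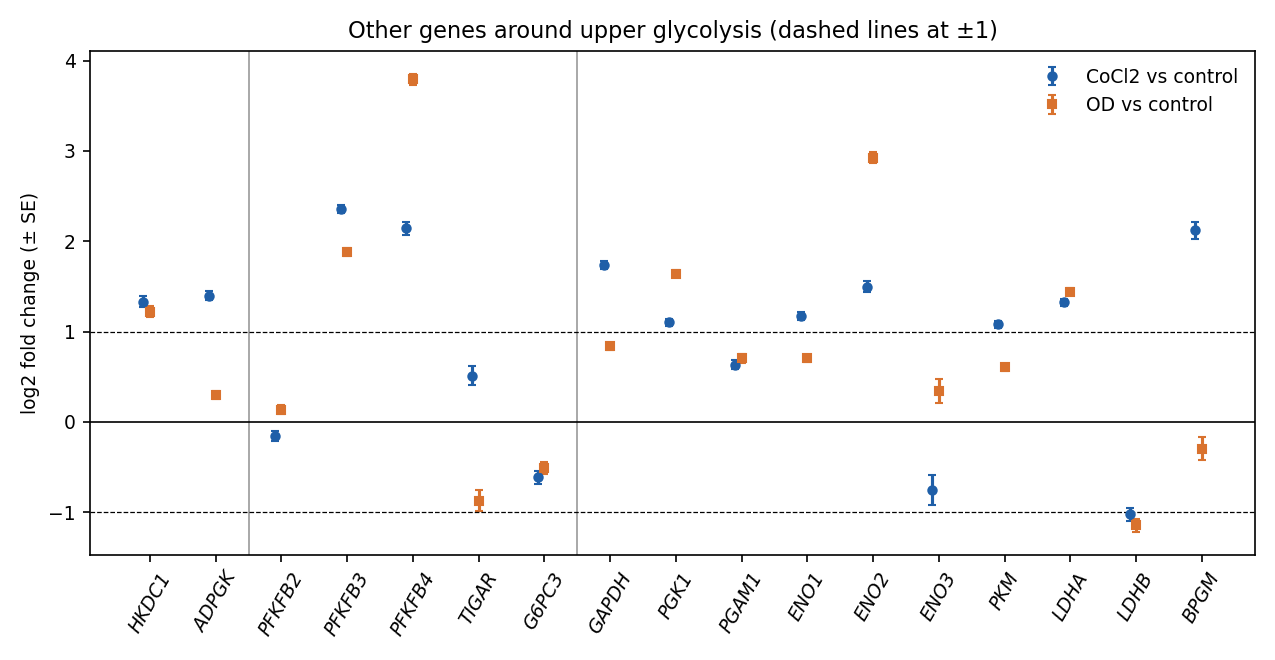
Log2 fold change against control with its standard error (vertical axis) of the other tested genes around upper glycolysis (horizontal axis), grouped by vertical lines into further isozymes, regulators of phosphofructokinase and lower glycolysis, with dashed lines at 1 in size. PFKFB4 (2.14 with CoCl2, 3.79 with OD) and ENO2 (2.92 with OD) are higher with OD than with CoCl2, while BPGM (2.12 and -0.30) and GAPDH (1.74 and 0.84) are higher with CoCl2 than with OD, and GCKR is not drawn.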

How the data were processed

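Messenger RNA of uCaco-2 was sequenced with stranded poly(A) libraries and single-end reads of 75 bases. Per the labels and the study's methods, the authors checked reads with FastQC 0.11.9, trimmed adapters with cutadapt 2.10, mapped them with STAR 2.7.5b on GRCh38.p13 and counted reads on GENCODE release 34 genes. The authors deposited raw read counts, 1 whole number for each symbol and library, without normalization, and 0 columns of other samples were left unused. The counting tool, its strand setting and its treatment of ambiguous reads are not given in the sources used here, so values of genes with shared exons or near-identical copies are uncertain.

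TMM factors were computed from the counts with edgeR 4.0.16 (R 4.3.3). After filterByExpr, 15944 of 60591 symbols entered a robust quasi-likelihood model of all 9 libraries, with 1 mean for each group, which gave each fold change, its standard error and a p-value with Benjamini-Hochberg adjustment over all tested genes. Every adjusted p in the text is from this model unless a permutation test is named. Calls used the limits of the study on the adjusted p (0.05) and on the size of the log2 fold change (1). Isoform ratios were the log2 ratio of counts in a library after adding 0.5 to each, compared by an exact two-sided permutation test over libraries. Gene positions and exon lengths came from GENCODE release 44, matched by symbol. On simulated counts for CoCl2 against control, 200 of 15944 genes were changed. Each was changed by more than the limit on size, genes of low level were not picked, and the spread was that of the fit itself. High recovery was thus largely built in. The edgeR fit recovered 200 and called 1 unchanged gene. DESeq2 1.42.0, used as an alternative, recovered 200 and called 0 unchanged genes. With CoCl2 the fit to the real counts called 3167 genes higher and 3724 lower than in control cells. Recovery with that many genes changed, or of changes near or under the limit on size, was not tested.

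All 9 members are named. Genes of other lists are named when called in any comparison, at most 5 per list by fold change, together with the 2 nearest genes of each member, and a few genes of these lists are not reported here. The members and lists were chosen with earlier results of these data known. Replicates are 3 biological replicates per group by the study's methods, and p-values measure the spread between their libraries. Between replicates of a group the chi-square per degree of freedom over genes was 1.82 to 3.32, more than counting error alone would give. Counts have no molecular identifiers, and rows with few counts, such as GCKR, are the least certain. The alternatives were other scalings, filters, libraries, tools, a replicate block, each library left out, the adjusted p alone, ALDOA with AC093512.2, another value added in the ratios, and other lengths for the shares and the order of levels, of which the MANE Select length and counts without a length were chosen after seeing the data.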

Additional observations from a re-analysis of the deposited data

How the results depend on the processing

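Of 486 alternative values of the members' fold changes, 477 kept their direction and side of the thresholds, and all 123 alternative values of the isoform ratios did. Scaling by library size alone moved the median over all genes to -0.55 on the log2 scale for CoCl2 against control and to -0.60 for CoCl2 against OD. Under it HK1 stood at -0.11 (CoCl2 against control), GPI at -0.51 and TPI1 at -0.36 (CoCl2 against OD), HK2 was no longer called with CoCl2 (0.81), and 5 members were called lower with CoCl2 than with OD. Relative to that median the same fold changes were 0.45, 0.09, 0.24 and 1.36, which by arithmetic hardly move with the scaling and cannot show which scaling is right. It also gave 1833 genes higher and 5839 lower with CoCl2 (3167 and 3724 with TMM) and 1351 and 6026 against OD (2790 and 3790). GPI between the compounds was -0.0285 with no filter on low counts and -0.0157 with at least 10 counts in every library, on both occasions without passing the test, and the cause was not tested. The filter at 10 counts left 803 genes higher and 331 lower with OD (1449 and 664 in the fit reported) and 1827 higher with CoCl2 than with OD, since it tests fewer genes. The adjusted p alone called 6 members higher with CoCl2, 8 higher and 1 lower with OD, and 2 higher and 6 lower for CoCl2 against OD, since it sets no limit on size. Leaving out any 1 library changed no member's call, with PFKL between -2.01 and -1.92 with CoCl2. To look for pairing by replicate number, the mean of each group was taken off log2 CPM. What remained correlated at -0.00492 to 0.0376 between same-numbered libraries of different groups, and 4 of 9 correlated best with their own number. With 3 libraries a group these values cannot settle whether the libraries were paired. With the replicate number as a block the members called were 3 higher and 2 lower with CoCl2 and 4 higher and 0 lower with OD. At about 300 counts, the ALDOA control row is the thinnest of the members.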
